A study of Mus musculus with 4 samples.

Results

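Accessible chromatin was examined at 9 genes that restrain TGFβ signalling from within the pathway, in NMuMG cells, a line derived from normal mouse mammary gland epithelium. The genes were chosen by name from what is known of the pathway, with earlier results of these data in view. They were the inhibitory SMADs Smad7 and Smad6, the transcriptional co-repressors Skil (SnoN), Ski and Tgif1, the ubiquitin ligases Smurf1 and Smurf2, the membrane-anchored SMAD-binding protein Pmepa1, and the pseudoreceptor Bambi. They are 9 of the 22350 protein-coding genes of the annotation (GENCODE vM1, mouse build mm9). Each gene was given a window, its body plus 20 kb on either side, and every accessible region touching that window was counted. A region was placed at a start site when it came within 1000 bp of any annotated transcription start site (TSS) of the gene. The windows held 25 of the 19648 regions listed for vehicle-treated cells, 40 of the 38532 listed after TGFβ, and 30 of the 26732 listed for the 10 min experiment.

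ATAC-seq, the assay used, inserts sequencing adapters with the Tn5 transposase into DNA that is not covered by nucleosomes, and open stretches therefore gather reads. There were 4 samples by the labels, with 1 for each condition. In complete medium, which holds serum and insulin, cells received vehicle or 5 ng/ml TGFβ for 2 h. In the other experiment cells were kept for 6 h without serum and insulin and then received vehicle or 5 ng/ml TGFβ for 10 min. The labels of both starved samples name the same peak list, and the name of that list is that of the TGFβ treatment. Which of the starved cells its peaks came from was not settled, so no contrast of treatments was made there, and the list differs from the others in medium and in time. For the starved TGFβ sample 1 label field gives 2 h, and its title, which gives 10 min, was followed. The lists hold peaks and no read counts. The study states read depths for its libraries, which were not used here, a list has no replicate here, and no difference between lists could be tested. Intervals given below are exact binomial 95% intervals and cover counting error only. As a check of the cell line, the epithelial keratins Krt8 and Krt18 had a start-site region in all 3 lists, the epithelial genes Cdh1 and Cldn4 had one in 1 list each and Epcam in none, while 3 of 4 mesenchymal genes (Vim, Cdh2 and Zeb2, without Twist1) had one in all lists and the blood cell genes Ptprc and Cd3e in none.

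TGFβ binds a pair of receptor kinases that phosphorylate SMAD2 and SMAD3, which join SMAD4 and bind DNA, often beside AP-1 factors. Many genes induced in this way encode brakes on the same pathway: SMAD7 and the SMURFs turn off the receptor, PMEPA1 and BAMBI interfere with receptor or SMAD activation, and SKI, SnoN and TGIF1 silence SMAD-bound targets. SMAD complexes recognise a short SMAD-binding element and its palindromic form.

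The regions that carry the comparison between vehicle and TGFβ can be read as sequence. Shown here, 5′ to 3′ on the plus strand of mm9 unless stated, is for each of 5 genes the region called only after TGFβ with the most SMAD and AP-1 motifs in the stretch shown, its central 300 bases or the whole where it is shorter, with ties given to the higher score. Smad7, which also has regions called only after TGFβ, is not shown. An intronic Pmepa1 region called in vehicle too and the bases before an internal Tgif1 start were added after their values were seen, because the results below turn on them. Capitals mark the searched motifs, on both strands: the SMAD motifs GTCTAGAC, a palindrome, and CAGACA, which reads TGTCTG on the other strand, and the AP-1 motif TGACTCA or its reverse complement TGAGTCA. The ETS motif CCGGAAGT was searched as well and does not occur in them.
Pmepa1 intron, called after TGFβ only, chr2:173083656-173083955: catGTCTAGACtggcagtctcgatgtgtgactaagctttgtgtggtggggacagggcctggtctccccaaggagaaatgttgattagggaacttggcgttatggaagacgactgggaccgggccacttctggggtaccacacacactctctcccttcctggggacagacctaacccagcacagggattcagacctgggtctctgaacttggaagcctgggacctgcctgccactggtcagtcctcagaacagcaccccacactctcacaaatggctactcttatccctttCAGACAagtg
Pmepa1 intron, called in vehicle and after TGFβ, chr2:173089279-173089578: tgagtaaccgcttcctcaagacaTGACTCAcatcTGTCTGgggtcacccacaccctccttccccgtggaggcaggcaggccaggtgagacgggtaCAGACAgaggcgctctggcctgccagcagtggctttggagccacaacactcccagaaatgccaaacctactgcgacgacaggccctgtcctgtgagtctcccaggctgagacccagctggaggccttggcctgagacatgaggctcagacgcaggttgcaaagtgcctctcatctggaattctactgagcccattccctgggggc
Smad6 intron, called after TGFβ only, chr9:63866340-63866639: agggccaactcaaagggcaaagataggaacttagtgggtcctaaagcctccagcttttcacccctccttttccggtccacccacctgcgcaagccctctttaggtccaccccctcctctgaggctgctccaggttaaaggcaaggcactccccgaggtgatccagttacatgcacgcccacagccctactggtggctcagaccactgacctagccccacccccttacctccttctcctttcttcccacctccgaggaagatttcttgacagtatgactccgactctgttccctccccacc
Skil intron, called after TGFβ only, chr3:31008100-31008341: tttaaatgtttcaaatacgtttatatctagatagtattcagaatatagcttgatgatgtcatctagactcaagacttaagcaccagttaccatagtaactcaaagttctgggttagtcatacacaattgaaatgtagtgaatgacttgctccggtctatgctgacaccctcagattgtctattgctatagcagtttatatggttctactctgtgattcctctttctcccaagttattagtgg
Ski downstream flank, called after TGFβ only, chr4:154510421-154510622: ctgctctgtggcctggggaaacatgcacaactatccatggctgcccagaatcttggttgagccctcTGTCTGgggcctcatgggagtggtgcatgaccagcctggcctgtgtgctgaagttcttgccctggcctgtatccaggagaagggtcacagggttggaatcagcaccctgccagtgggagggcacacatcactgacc
Smurf1 intron, called after TGFβ only, chr5:145710742-145710957: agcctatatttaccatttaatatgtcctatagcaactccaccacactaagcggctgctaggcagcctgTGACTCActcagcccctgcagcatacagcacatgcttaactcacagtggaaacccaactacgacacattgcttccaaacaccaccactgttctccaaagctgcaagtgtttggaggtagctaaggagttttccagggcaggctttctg
Tgif1 before the start at base 71201074, minus strand, chr17:71201075-71201374: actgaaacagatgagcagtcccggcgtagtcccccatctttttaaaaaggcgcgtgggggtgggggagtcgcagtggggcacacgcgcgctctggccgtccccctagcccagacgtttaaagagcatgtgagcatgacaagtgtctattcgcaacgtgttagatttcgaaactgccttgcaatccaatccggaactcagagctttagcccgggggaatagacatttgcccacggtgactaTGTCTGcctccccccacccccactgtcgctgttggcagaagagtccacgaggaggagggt
The central stretch of the Pmepa1 region called only after TGFβ held the palindromic SMAD motif and the short one. Among the 17829 TGFβ-only regions away from start sites, cut to the same length, 31.7% held a SMAD motif, 36.1% an AP-1 motif, 0.488% the ETS motif and 0.752% the palindrome. The Pmepa1 region shared with vehicle held 1 AP-1 and 2 SMAD motifs, a combination at least this dense being present in 2.70% of the 27584 TGFβ-list regions away from start sites. The Ski sequence held 1 SMAD motif, the Smurf1 sequence 1 AP-1 motif, and the Smad6 and Skil sequences held neither. Of all 16 TGFβ-only regions of these 5 genes, cut in the same way, 10 held neither motif, or 62.5%. Among the 17829 regions 44.5% held neither. The bases before the Tgif1 start held 1 SMAD motif, which 21.2% of 32851 RefSeq mouse promoters of the same length also hold (AP-1 5.20%, ETS 3.89%). Those promoters run from 250 bp before a start to 50 bp after it, whereas the Tgif1 bases all lie before the start. The sequences were picked by motif number or after their values were seen, whereas the shares cover unselected sequences. Such a pick tends to hold more motifs, so no excess can be read from the comparison. A match is a description of letters, and no match says only that these letters are not in the stretch shown.

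All 9 genes had a region within 1000 bp of a start site in each of the 3 lists. Across all protein-coding genes this held for 41% in vehicle, 47.6% after TGFβ and 46.3% at 10 min. Every feedback gene thus had an accessible region near a start in vehicle-treated cells, and no start-site region was gained or lost between lists under this definition. The 9 genes have 39 distinct annotated starts, of which 9 lay inside a vehicle region, 15 inside a TGFβ region and 15 inside a 10 min region. The 5′-most start base itself was covered in the vehicle list at 5 genes, Pmepa1, Skil, Smad6, Smurf2 and Bambi, against 33.5% of all genes. Those 7498 genes by definition all lie among the 9163 with a start-site region in vehicle. Beside these 9163 genes, 5 of 9 was therefore not a high share. At Ski, Smurf1 and Tgif1 that base was covered in no list. At Smad7 it was covered in the TGFβ and 10 min lists and not in the vehicle list, a pattern between vehicle and TGFβ that 5.94% of all genes showed.

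The start-site regions differed in how far they extended. Of 11 vehicle regions at starts of the 9 genes, each matched by a TGFβ region, 4 had a TGFβ match at least 1.5 times as wide, which was the case for 24.3% of the 8583 vehicle regions at starts in the genome that had a TGFβ match. The 4 were at Tgif1, Smad7, Skil and Bambi. These widths include the gaps under 1000 bp that were closed between intervals. At Tgif1 and Smad7 the matched intervals themselves were close in width, as given below. The median ratio of TGFβ to vehicle width over the 11 was 1.15, and over the 8583 it was 1.08.

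Tgif1, a homeodomain repressor that binds activated SMADs, had the largest width ratio, 4.76 (chromosome 17, 71193545 to 71202886, minus strand). Its main start-site region was 487 bp wide in vehicle, 2318 bp after TGFβ and 2299 bp in the 10 min list. The TGFβ region was made of 4 separate intervals, of which 3, with scores of 726, 706 and 959, had no counterpart in the vehicle list. The remaining interval, of 542 bp, overlapped the vehicle interval of 487 bp, so the ratio came from the joined intervals. The joined region therefore reached over 3 further annotated starts, at 71200471, 71200555 and 71201074, which lay 1751, 1667 and 1148 bp from the nearest vehicle region. The bases printed above precede the last of these. The score is the authors' scaled IDR, a measure of how reproducible a peak is, with 540 as its lowest value and 1000 as its upper limit (the cap), and it was read within a list. Farther inside the gene, the region beside the start at 71195666 was 402 bp in vehicle, 287 bp after TGFβ and 446 bp in the 10 min list.

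Smad7, whose protein blocks the activated receptor and recruits SMURF ligases to it, came next, with a ratio of 3.87 (chromosome 18, 75527183 to 75555589, plus strand). The region at its main start was 342 bp wide in vehicle, where it ended 697 bp short of the start. It was 1324 bp wide after TGFβ and 1080 bp in the 10 min list, and reached the start in both. Of the 3 TGFβ intervals that made it up, 2 had no vehicle counterpart. The remaining interval, of 337 bp, overlapped the vehicle interval of 342 bp, so here too the ratio came from the joined intervals. The region beside an internal start of a non-coding transcript was 353, 384 and 367 bp wide in the same order.

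Skil, whose product SnoN is degraded on TGFβ signalling and then made anew, had a start-site region of 809 bp in vehicle, 1865 bp after TGFβ and 1624 bp in the 10 min list (chromosome 3, 30993980 to 31021499, plus strand). In the TGFβ list an interval of 199 bp without a vehicle counterpart joined an interval of 1535 bp. Bambi, a receptor decoy without a kinase domain, had a start-site region of 487 bp in vehicle, 958 bp after TGFβ and 480 bp in the 10 min list (chromosome 18, 3507955 to 3516402, plus strand). Here a single interval accounted for the width in each list, so at Bambi the joining of neighbours played no part.

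The other start-site regions were closer in width between vehicle and TGFβ. Smurf1 had 1290 bp in vehicle, 1769 bp after TGFβ and 707 bp in the 10 min list. Its vehicle and TGFβ regions were each joined from separate intervals, and its narrower 10 min region was not. Smurf2 had 826, 953 and 1176 bp in the same order. Smad6 had 1396, 1384 and 1540 bp. Ski had 569, 572 and 740 bp, with the region at the score cap in all 3 lists. Pmepa1 had the narrowest, 361, 325 and 337 bp, and that region covered the start base in every list. Pmepa1, whose intronic regions are described below, thus differed between lists inside the gene and not at its promoter.

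**Figure D1:**
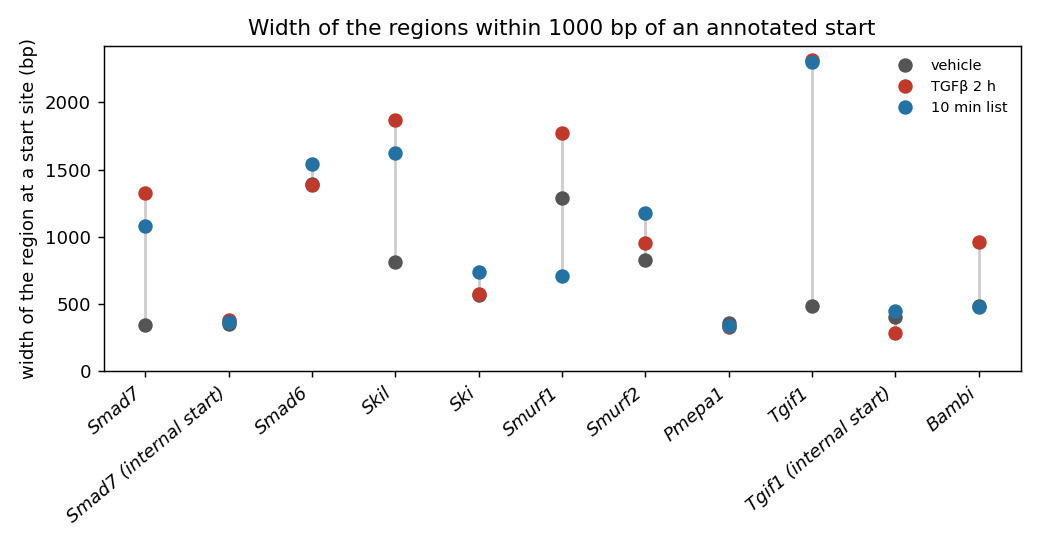
Width in bp (vertical axis) of each region within 1000 bp of an annotated start of the 9 genes, 1 point per list (grey vehicle, red TGFβ 2 h, blue 10 min list), with a grey line joining the lowest and highest. The main start-site regions of Tgif1, Smad7 and Skil are much wider in the TGFβ and 10 min lists than in vehicle, whereas the Pmepa1 points lie between 325 and 361 bp. Widths include gaps closed between joined intervals.

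Over the whole windows the 9 genes held 25 vehicle, 40 TGFβ and 30 10 min regions, or 3.07, 4.92 and 3.69 per 100 kb. Among the 9163 protein-coding genes with a start-site region in the vehicle list, the genes most like them in this respect, the values were 2.46, 3.66 and 3.05 per 100 kb. TGFβ regions outnumbered vehicle regions by a ratio of 1.60 for the 9 genes (exact 95% interval 0.947 to 2.75), 1.49 for the open genes and 1.70 for all genes. The interval treats vehicle and TGFβ regions as independent. It is therefore no measure of the spread of this ratio, since 22 of the 25 vehicle regions were also called after TGFβ. The ratio was larger for covered length than for number at the 9 genes: TGFβ to vehicle covered bp stood at 2.08 for the 9 genes, 1.51 for the open genes and 1.67 for all genes. More TGFβ than vehicle regions were listed at 6 of 9 genes, against 56.9% of open genes and 48.2% of all genes. The TGFβ list is also longer than the vehicle list, and what this adds to the counts was not tested. With the TGFβ list reduced to as many top-scoring regions as the vehicle list has, the windows held 19 TGFβ regions against 25 in vehicle, a ratio of 0.76, and 1 of 9 genes had more after TGFβ. That cut drops the lower-scoring TGFβ regions and leaves the vehicle list whole, so it lowers the TGFβ counts by construction. It was not made for the open genes or for all genes, so 0.76 has no background value beside it.

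**Figure D2:**
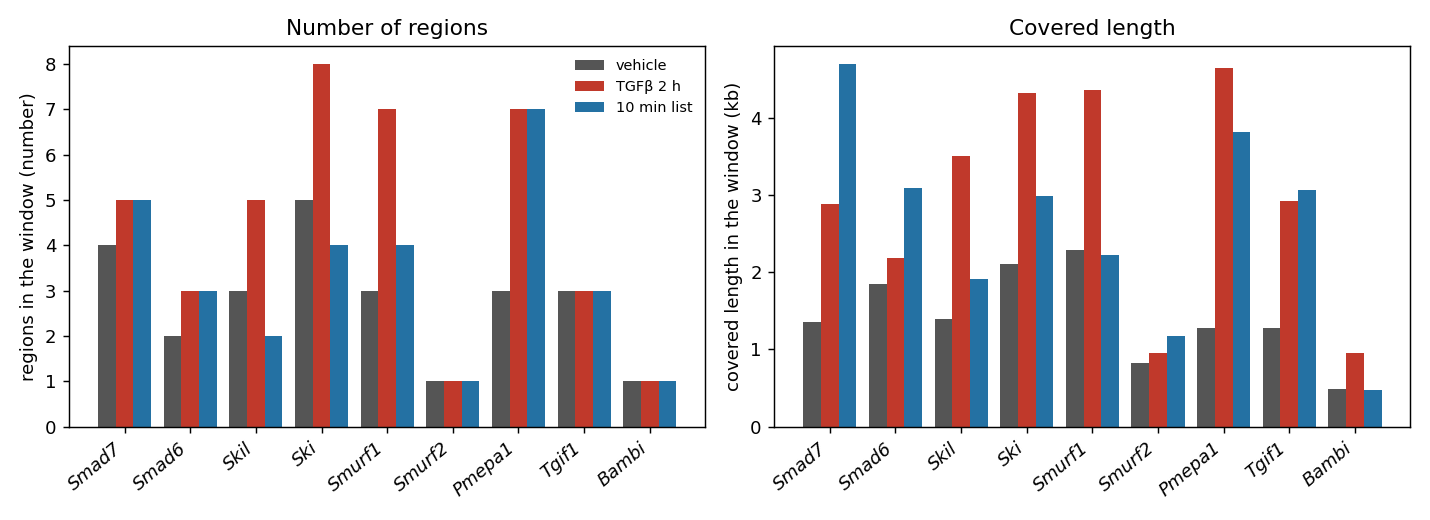
Number of regions (left) and covered length in kb (right) in the window of each gene, for the vehicle (grey), TGFβ 2 h (red) and 10 min (blue) lists, 1 value per gene and list without replicates. Ski, Smurf1 and Pmepa1 have 7 or 8 regions after TGFβ against 3 to 5 in vehicle, Smurf2 and Bambi have 1 in every list, and Smad7 has its greatest covered length in the 10 min list.

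A region was called TGFβ-only when it shared no base with any vehicle region. Of the 40 TGFβ regions, 18 were TGFβ-only, or 45% (29.3 to 61.5%), against 52.4% of all TGFβ regions. At least 1 was found at 6 of the 9 genes, compared with 59.6% of open genes and 50.2% of all genes. By count the feedback genes lay close to the background. All 18 (81.5 to 100%) lay more than 1000 bp from any start, as did 88.3% of all TGFβ-only regions: 12 in introns, 4 upstream, 1 downstream and 1 on a coding exon of Smurf1. Their median width was 380.5 bp and their median score 693, whereas the 22 TGFβ regions shared with vehicle had a median width of 555 bp and a median score of 1000. In the whole TGFβ list the medians were 281 bp and 742 for TGFβ-only regions and 546 bp and 1000 for shared ones. Of the 18, 1 reached the score cap, or 5.56% (0.141 to 27.3%), against 13.9% of all TGFβ-only regions, a value inside that interval. That put 1 of 9 genes among those with a capped TGFβ-only region, which 14.2% of open genes and 11.3% of all genes had.

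**Figure D3:**
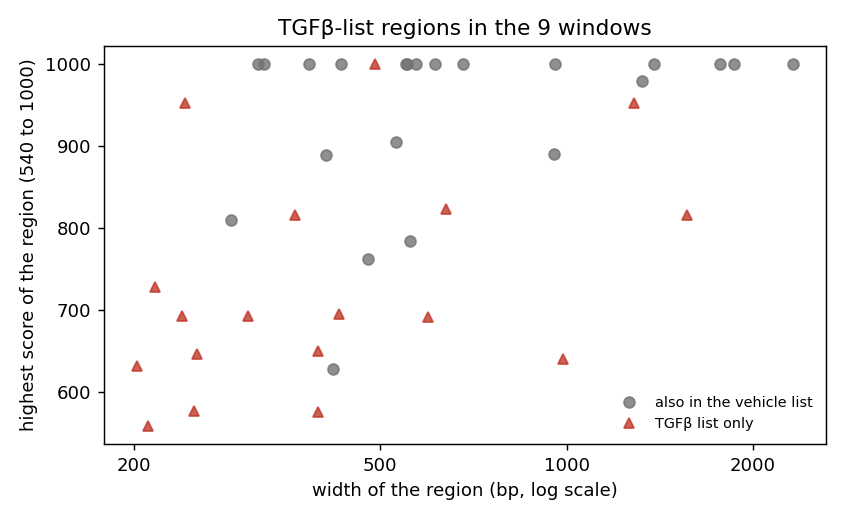
Width in bp (horizontal, log scale) and highest score (vertical, from 540 to the cap of 1000) of the 40 TGFβ-list regions in the 9 windows; grey circles were also called in vehicle, red triangles were called after TGFβ only. The TGFβ-only regions have a median score of 693 and 1 of them sits at the cap, where 14 of the 22 shared regions sit, against 71.6% of all shared TGFβ regions.

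Pmepa1 encodes a membrane protein that holds SMAD2 and SMAD3 away from the receptor (chromosome 2, 173049959 to 173102034, minus strand). Its window held 3 regions in vehicle, 7 after TGFβ and 7 in the 10 min list, covering 1279, 4650 and 3814 bp. In vehicle these were the promoter, a region 5206 bp upstream of the start, and an intronic region of 630 bp at the score cap, 12623 bp into the gene. After TGFβ that intronic region was called too, with 614 bp, and was flanked by 3 TGFβ-only regions. The widest of them, at chr2:173083163-173084448, had 1286 bp, a score of 952 and 7 summits. Another, at chr2:173091814-173092452, had 639 bp and a score of 824, and both overlapped regions of the 10 min list. The region between the widest and the shared one, at chr2:173087074-173088058, had 985 bp and a score of 641 and was not in the 10 min list. The 10 min list had in addition 2 short regions of this window found in neither other list. Of the 9163 open genes, 7.08% had as many TGFβ-only regions as Pmepa1, 4 or more. The same share holds for Ski, which also had 4. The windows of Pmepa1 and Ski, 92.1 and 109 kb, were longer than the open-gene median of 64.5 kb.

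Smurf1, a HECT-type ubiquitin ligase that acts with SMAD7 on the receptor, had the most TGFβ-only regions, 5 (chromosome 5, 145637364 to 145726716, minus strand). As many were found at 3.70% of the open genes, but its window of 129 kb was also longer than their median window of 64.5 kb. The region with the highest score, at chr5:145739467-145739957, lay 12996 bp upstream of the start, was at the score cap and was called in the 10 min list as well. The next by score were intronic, at chr5:145710742-145710957 with 728 and at chr5:145665191-145665787 with 692. Neither was in the 10 min list. A region 67042 bp into the gene in vehicle, where it overlapped a coding exon, was at the cap in all 3 lists, 737, 681 and 799 bp wide. In the TGFβ and 10 min lists it lay in the intron. A start site of a neighbouring gene lies within 3 of the windows, that of Trrap in the Smurf1 window, Ccdc45 in the Smurf2 window and Zbp1 in the Pmepa1 window.

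Smurf2, the sister ligase with a longer gene and a window of 141 kb, had 1 region in each list, that at its promoter (chromosome 11, 106681380 to 106782029, minus strand). The widths given above are thus all that its window held. Smurf1 and Smurf2 thus had 5 and 0 TGFβ-only regions.

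Ski, a proto-oncoprotein that recruits co-repressors to SMAD complexes, had 5 regions in vehicle, 8 after TGFβ and 4 in the 10 min list (chromosome 4, 154528184 to 154596701, minus strand). Its 4 TGFβ-only regions were all absent from the 10 min list. The one with the highest score, at chr4:154590266-154591832, was intronic, 1567 bp wide and scored 816, and was made of 2 intervals. A further intronic region, at chr4:154580094-154580332, scored 693, and an upstream one, at chr4:154612406-154612658, scored 647 and lay nearer the start of 2610002J02Rik than that of Ski. The downstream region whose sequence is shown above lay nearer the start of Morn1. Its paralogue Skil had 3, 5 and 2 regions. The Skil TGFβ-only region in an intron, at chr3:31008100-31008341, scored 952 and was called in the 10 min list with 284 bp. The upstream one, at chr3:30982587-30983015, scored 695 and was not. The Skil regions 19038 bp upstream and 39403 bp downstream of the start, the latter nearer to Cldn11, were called with and without TGFβ in complete medium and not in the 10 min list.

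Smad7 had 4, 5 and 5 regions in its window and covered lengths of 1351, 2889 and 4701 bp. Its TGFβ-only regions were 1 of 306 bp in the body of the gene, with a score of 693, and 1 of 397 bp upstream, with a score of 576. The first of these lay 841 bp from a vehicle-only region of 447 bp, and in the 10 min list a single region of 2710 bp with 8 summits spanned both. Smad6, the inhibitory SMAD that acts mainly on BMP signals, had 2, 3 and 3 regions (chromosome 9, 63800953 to 63869866, minus strand). Its single TGFβ-only region, at chr9:63866308-63866671, was intronic, 3376 bp into the gene, with a score of 816, and a region of 846 bp overlapped it in the 10 min list. Tgif1 had 3 regions in every list and Bambi 1, so that at these genes the lists differed in the width of regions and not in their number. At Tgif1 the joined TGFβ region held 3 intervals without a vehicle counterpart, so there the number of intervals did differ.

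**Figure D4:**
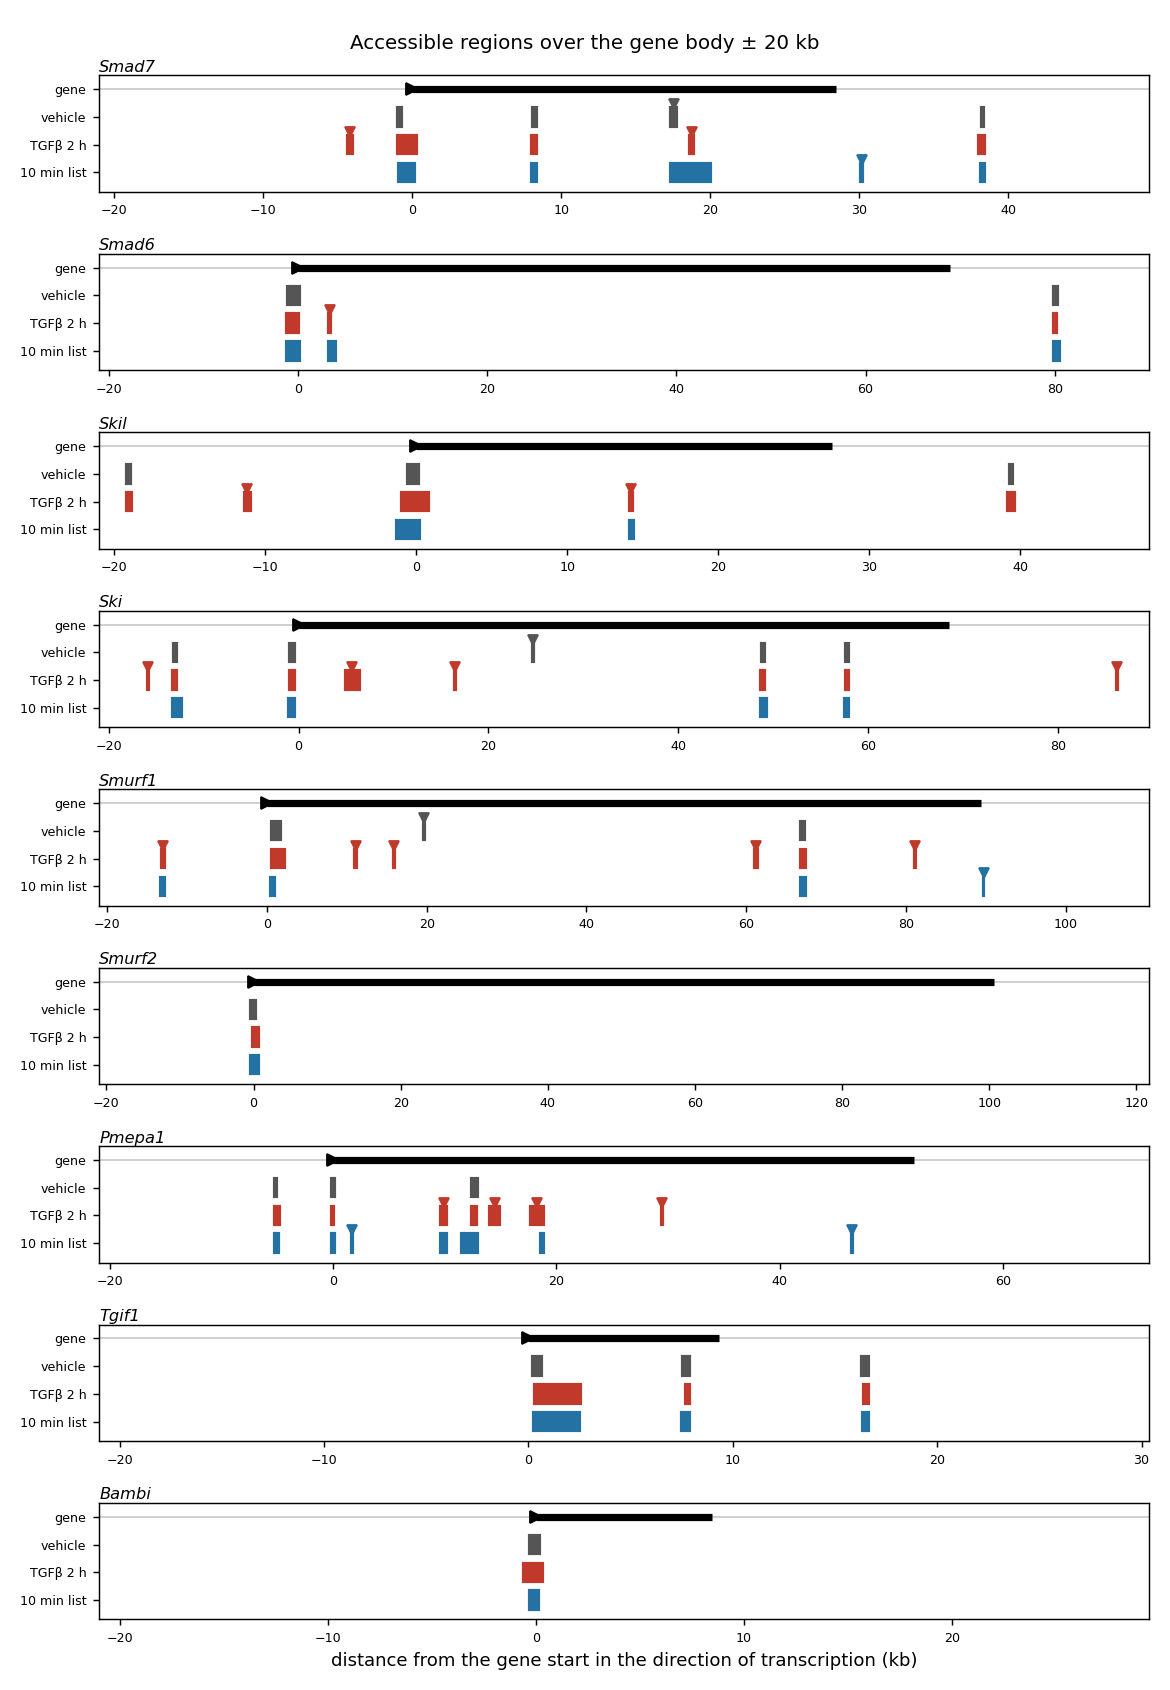
Regions of the vehicle (grey), TGFβ 2 h (red) and 10 min (blue) lists along the window of each gene, by distance in kb from the gene start in the direction of transcription; the black bar is the gene, and an outline keeps the narrowest regions visible. Triangles mark regions absent from the other complete-medium list (vehicle and TGFβ rows) or from both other lists (10 min row): 18 after TGFβ, 3 in vehicle and 4 in the 10 min list.

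Regions listed in vehicle and not after TGFβ were few but not absent. Of the 25 vehicle regions, 3 had no TGFβ counterpart, or 12% (2.55 to 31.2%), against 6.44% of all vehicle regions. They were spread over 3 genes of 9, where 9.57% of open genes and 6.93% of all genes had one. The Smad7 region of 447 bp, with a score of 609, was covered in the 10 min list as given above. The Ski region, at chr4:154571942-154572101, was 160 bp wide, close to the width minimum of 150 bp, with a score of 764. The Smurf1 region, at chr5:145706930-145707190, had 261 bp and a score of 912. The Ski and Smurf1 regions were absent from the 10 min list too.

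The 10 min list held most of what vehicle and TGFβ had in common. Of the 22 shared TGFβ regions 20 overlapped it, or 90.9% (70.8 to 98.9%), beside 90.8% of all shared TGFβ regions. Of the 18 TGFβ-only regions 6 did, or 33.3% (13.3 to 59.0%). Of all TGFβ-only regions 31.5% did. The 6 were 2 at Pmepa1 and 1 each at Smad7, Smad6, Skil and Smurf1. In turn 4 of 30 10 min regions were in neither other list, or 13.3% (3.76 to 30.7%), beside 12.2% of all. Of these Pmepa1 had 2, and Smad7 and Smurf1 had 1 each. Medium, time and treatment cannot be told apart in these overlaps.

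SMAD and AP-1 motifs were counted in the 200 bp on each side of a region's centre. A SMAD motif was found in 6 of the 18 TGFβ-only regions of the feedback genes, 33.3% (13.3 to 59.0%), beside 41.8% of all TGFβ-only regions away from start sites. An AP-1 motif was found in 3 of the 18, 16.7% (3.58 to 41.4%), beside 39.2%. Among the 11 TGFβ regions of these genes that were shared with vehicle and lay away from starts, 6 had an AP-1 motif, 54.5% (23.4 to 83.3%), beside 44.8% of all such regions, and 4 had a SMAD motif, 36.4% (10.9 to 69.2%), beside 37.0%. Each of these intervals includes the value for all regions. The ETS motif was found in 0 of the 40 TGFβ regions, which allows up to 8.81%, and in 2.77% of all TGFβ regions. Over all 40, SMAD motifs stood in 14, or 35% (20.6 to 51.7%), and in the whole TGFβ list in 13482 of 38532 regions.

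The remaining genes of the pathway were read in the same windows. Of 14 core signalling genes (ligands, receptors and receptor-activated or common SMADs), 8 had a start-site region in vehicle and 11 in each of the other lists. Their TGFβ-only regions numbered 28 over 8 genes, of which 6 over 4 genes were at the score cap. Smad3, the main DNA-binding effector, had 4 vehicle and 14 TGFβ regions, 10 of them TGFβ-only, and Eng, the co-receptor endoglin, had 4 TGFβ-only regions, 3 of them capped. Of 11 other regulators, 10 were found in the annotation by name (all but Ldlrad4). They had 17 TGFβ-only regions over 9 genes, 2 of them capped, and 9, 10 and 9 genes had a start-site region in the 3 lists. TGFβ regions per vehicle region were 1.96 for the core genes, 1.94 for the other regulators and 1.60 for the 9 feedback genes, with no test of the difference.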

How the data were processed

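ATAC-seq peak lists from NMuMG cells (3) were used. Per the study's methods and the submitters' processing notes, the authors ran the ENCODE ATAC-seq pipeline on mm9, called peaks with MACS2 2.1.2 and retained those reproducible by IDR (threshold 0.05); no read shift is stated for the peak calls. The deposited score is the authors' scaled IDR, and a list has 1 line per summit. What served as replicates for each list could not be settled from the labels. Here repeated lines were collapsed, intervals under 150 bp dropped and gaps under 1000 bp closed, so a wide region can hold several intervals. Overlap meant 1 shared bp. No interval ran past an mm9 chromosome end. Starts came from GENCODE vM1, sequences from the mm9 genome, promoter motif shares from RefSeq sequences (GRCm38). Python 3.11.15, pandas 2.3.3, scipy 1.17.1 and pysam 0.24.0 were used, and the steps were tested on simulated intervals. The genes, lists and motifs were chosen with earlier results of these data known. All 9 genes are named; named regions are all those at starts, all vehicle-only ones and at most 3 TGFβ-only ones per gene by score, other regions being named after their values were seen.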

Additional observations from a re-analysis of the deposited data

How the results depend on the processing

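The 6 main results were recomputed under up to 9 other settings each, without a test. Region widths and covered lengths, which include closed gaps, were not recomputed. The number of genes with a start-site region in vehicle was 9, or 6 with peaks at or above the list's median score and 6 with 200 bp around starts. With the TGFβ and 10 min lists reduced to the vehicle list's length, the ratio of TGFβ to vehicle regions turned from 1.60 to 0.76, TGFβ-only regions numbered 3 and 66.7% of them were in the 10 min list. Otherwise the ratio was 1.56 to 1.96. TGFβ-only regions, 18 in the report, numbered 28 when touching intervals alone were merged, 29 as deposited and 8 above the median score. Those at the cap, 1 in the report, numbered 3 with a 300 bp minimum, 7 above the median score, 0 with 5 kb flanks, 2 with 50 kb flanks and 2 when a shared region had to contain the centre. Vehicle-only regions, 3 in the report, numbered 9 with the TGFβ and 10 min lists reduced, 5 as deposited and 1 above the median score. SMAD motifs stood in 65% of TGFβ regions with 500 bp on each side of the centre. The cause was not tested, but a wider motif window holds more sequence and a shorter list fewer regions by construction. The lists carry no read counts, so a region missing from a list was not set against a detection limit. No paired analysis was possible because the complete-medium conditions have 1 list each, the starved ones share 1, and no result comes from a test; for the same reason no replicate could be left out.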
